A study of Homo sapiens with 2 samples.

Results

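The cluster of miR-183, miR-96 and miR-182, here the miR-183 cluster, is a group of 3 microRNA (miRNA) hairpins that lie side by side on chromosome 7 and are cut from a single primary transcript. Its members were taken by name: every row of both deposited small RNA tables whose stem is hsa-miR-182, hsa-miR-183 or hsa-miR-96, from either arm. RefSeq annotates 6 mature products of these hairpins, and 3 of the 6, miR-182-5p, miR-183-5p and miR-96-5p, were among the 425 miRNAs listed in either library. The cells were MDA-MB-231-IV2-1, a highly metastatic subline that had been selected in mice from MDA-MB-231, a human triple-negative breast cancer cell line; the characteristics field of the labels names only the parental line and the titles name IV2. Both groups were transfected with siRNA and harvested after 48 h. The control group (N.C) received a scrambled siRNA, and the LOC550643 knockdown group received a pool of siRNAs against LOC550643, a long non-coding RNA whose own level was not analysed here. Each group had 1 library, so differences between the groups have no replicate check and no p-values were computed.

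A primary miRNA transcript is cut by Drosha into hairpins, Dicer trims each hairpin to a short duplex, and usually one strand of that duplex, from the 5p or the 3p arm, stays bound to an Argonaute protein. The bound strand finds its targets mainly through its seed, the bases after the first one at its 5′ end. The miR-183 cluster is best known from the hair cells of the inner ear and from the retina, and in breast cancer cells miR-96 and miR-182 have been described as repressors of the transcription factor FOXO1.

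In the GENCODE 29 annotation of GRCh38, the hairpins lie on the minus strand, in the order of transcription MIR183 (chr7:129774905-129775014), MIR96 (chr7:129774692-129774769) and MIR182 (chr7:129770383-129770492). Together they span 4632 nt. MIR183 and MIR96 are separated by 135 nt, whereas 4199 nt separate MIR96 from MIR182. No other annotated gene overlaps the span, which is intergenic: the coding gene NRF1, on the plus strand, ends 13300 nt to one side, and the nearest end of UBE2H, on the minus strand, is its 3′ end, 55717 nt to the other.

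**Figure D1:**
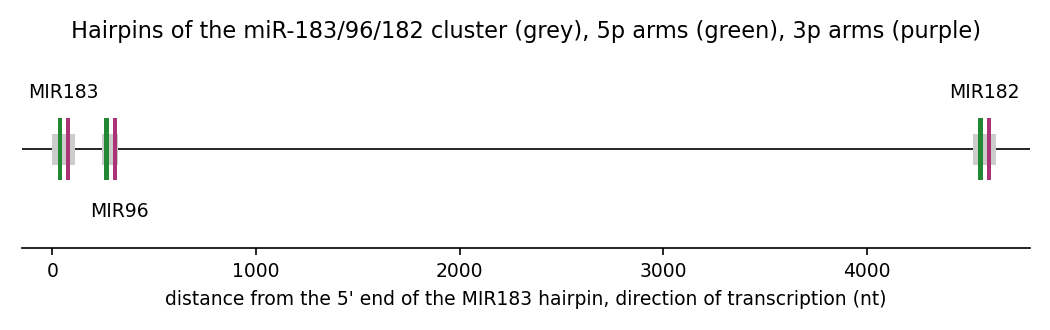
Map of the cluster in the direction of transcription, with the distance in nucleotides from the 5′ end of the MIR183 hairpin on the horizontal axis. Grey boxes are hairpins, green bars 5p arms and purple bars 3p arms; MIR183 and MIR96 lie 135 nt apart and MIR182 lies 4199 nt after MIR96.

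The mature 5p sequences (RefSeq, GRCh38.p14) are shown because they decide which targets each product can find; capitals mark the seed, bases 2 to 8.
miR-183-5p: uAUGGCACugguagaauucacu
miR-96-5p: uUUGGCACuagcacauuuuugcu
miR-182-5p: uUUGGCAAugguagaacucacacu

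The 5p products are 22 nt (miR-183-5p), 23 nt (miR-96-5p) and 24 nt (miR-182-5p) long and resemble one another. Aligned from base 1 without gaps, miR-182-5p and miR-183-5p shared 18 of 22 bases (81.8%), miR-182-5p and miR-96-5p shared 12 of 23 (52.2%), and miR-183-5p and miR-96-5p shared 13 of 22 (59.1%). Counted from the 5′ end, with the base of the first named miRNA first, miR-182-5p and miR-96-5p differed within their first 8 bases by A8C alone. Between miR-183-5p and miR-96-5p the only such difference was A2U, and between miR-182-5p and miR-183-5p there were U2A and A8C. Each member therefore has a seed of its own, although bases 2 to 7 (UUGGCA) are the same in miR-182-5p and miR-96-5p. The members most alike over their whole length, miR-182-5p and miR-183-5p, are the ones whose seeds differ most.

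The hairpins of MIR182 and MIR96 show where miR-182-5p and miR-96-5p come from. The sequences used here held none for the MIR183 hairpin, so it is not shown. The 5p arm is in capitals, and the 3p arm lies in the lower-case stretch after the loop.
MIR182: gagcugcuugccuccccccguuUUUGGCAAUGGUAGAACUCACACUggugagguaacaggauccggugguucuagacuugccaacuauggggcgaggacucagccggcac
MIR96: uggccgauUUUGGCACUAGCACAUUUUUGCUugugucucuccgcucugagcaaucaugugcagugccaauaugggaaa

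Levels are given in RPM, the reads of a miRNA per 1000000 reads assigned to mature miRNAs in its library. A single read was worth 5.29 RPM in the library of the control cells, which gives a depth of about 189034 reads on listed miRNAs. The library of the knockdown cells was deeper, with 2.03 RPM to a read and about 491541 reads. All 6 values of the listed members lay within 0.1 read of a whole number. Intervals are 95% Clopper-Pearson intervals of these reads and cover counting error only, not variation between cultures or library preparations. They treat the reads as independent molecules. Reads made by PCR without molecular identifiers are not independent, so the intervals can be too narrow even for counting error.

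The miR-182-5p product was the most abundant member in both libraries. It was at 2904 RPM in control cells (549 reads, 95% interval 2667 to 3157 RPM), where it ranked 23 of 376 listed miRNAs, and at 3267 RPM in knockdown cells (1606 reads, 3110 to 3431 RPM), where it ranked 21 of 375. The miR-183-5p product came next. It was at 1592 RPM in control cells (301 reads, 1418 to 1783 RPM, rank 38) and at 1591 RPM in knockdown cells (782 reads, 1481 to 1706 RPM, rank 37). The lowest member, miR-96-5p, was at 175 RPM in control cells (33 reads, 120 to 245 RPM, rank 103) and at 128 RPM in knockdown cells (63 reads, 98.5 to 164 RPM, rank 106). The order miR-182-5p, miR-183-5p, miR-96-5p held in both libraries, and within a library no interval touched that of its neighbour. Summed, the cluster made up 0.467% of all RPM in control cells and 0.499% after knockdown.

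**Figure D2:**
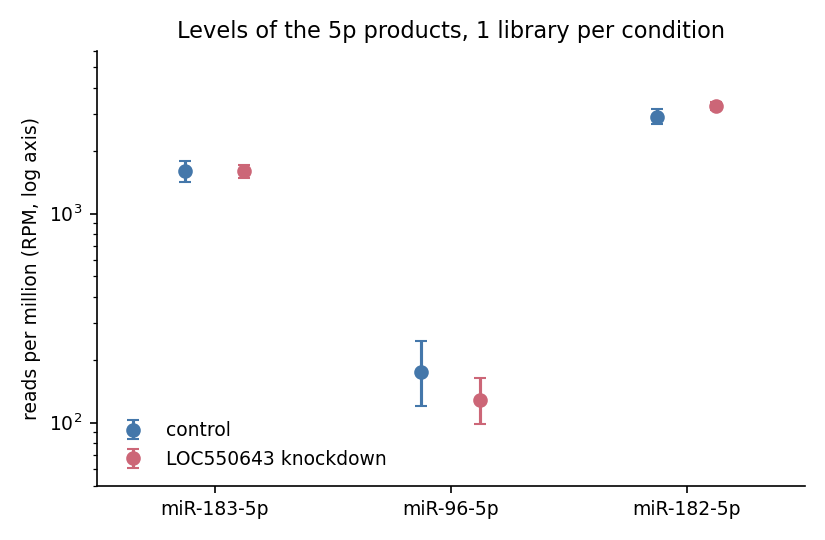
RPM (log axis) of the 3 listed members, in the order of transcription, in control cells (blue) and the knockdown library (red); bars are 95% counting intervals and each point is 1 library. In each library miR-96-5p sits lowest, at 175 and 128 RPM, against at least 1591 RPM for miR-183-5p and at least 2904 RPM for miR-182-5p.

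The hairpins of this one transcript thus differed widely in output, which here means the reads of their mature products. How the transcript was cut and how long each product lasted were not measured. In the control library miR-182-5p held 62.2% of the cluster's 883 reads (95% interval 58.9 to 65.4%), miR-183-5p 34.1% (31.0 to 37.3%) and miR-96-5p 3.74% (2.59 to 5.21%). In the knockdown library, with 2451 reads, the shares were 65.5% (63.6 to 67.4%), 31.9% (30.1 to 33.8%) and 2.57% (1.98 to 3.28%). Output did not follow the order along the transcript, since the lowest hairpin, MIR96, lies between the others and next to MIR183. In the control library 16.6 reads of miR-182-5p were counted for each read of miR-96-5p (11.7 to 24.4), and 9.12 of miR-183-5p (6.36 to 13.5). In the knockdown library these ratios were 25.5 (19.8 to 33.3) and 12.4 (9.59 to 16.3). The ratio of miR-182-5p to miR-183-5p was 1.82 (1.58 to 2.11) in control cells and 2.05 (1.88 to 2.24) in knockdown cells. A ratio between different miRNAs also holds any difference in how well each sequence was ligated and amplified, and the part this played was not tested.

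The 3p arms of all 3 hairpins, miR-182-3p, miR-183-3p and miR-96-3p, were listed in neither library. A count of 0 allows up to 3 reads, or 15.9 RPM in control cells and 6.10 RPM in knockdown cells. With that limit, miR-182-3p held at most 0.543% of the reads of its hairpin in control cells and at most 0.186% in knockdown cells. For MIR183 the limits were 0.987% and 0.382%, which put miR-183-5p at least 100.3-fold and 261-fold above miR-183-3p. For MIR96, with fewer reads, they were 8.33% and 4.55%, and miR-96-5p was at least 11.0-fold and 21.0-fold above miR-96-3p. The listed values fall short of 1000000 by 3.74 RPM, 0.71 of a read, in control cells and by 155 RPM, 76.0 reads, in knockdown cells, so the limits of the knockdown library hold only if none of these unlisted reads came from a 3p arm. A single listed arm was not particular to this cluster. Of hairpins with a pair of annotated single-locus arms and a main arm of at least 1000 RPM, 7 of 26 in control cells (26.9%) and 6 of 25 in knockdown cells (24.0%) had no value for the other arm. MIR182 and MIR183 are among the 7 and among the 6. With a main arm of at least 100 RPM, a level that miR-96-5p reached, the other arm had no value in 26 of 63 hairpins in control cells (41.3%). In knockdown cells it had none in 21 of 59 (35.6%).

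The comparison of the libraries asks whether LOC550643 knockdown was accompanied by another level of these miRNAs. Both libraries were set to the same total, and a fold change is the difference of log2(RPM + 1), knockdown minus control. For miR-182-5p the log2 fold change was 0.17 with a counting interval of 0.03 to 0.31, which is a ratio of 1.12 (1.02 to 1.24). For miR-183-5p it was -0.0013 (-0.19 to 0.20). For miR-96-5p it was -0.44 (-1.08 to 0.21), and with 33 reads in control cells no difference was detectable at this depth. The summed cluster had a log2 fold change of 0.09 (-0.02 to 0.21). The 3 members thus had one value above 0, one near 0 and one below it, and with this scaling the interval left out 0 for miR-182-5p alone.

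None of the 3 members was more than 2-fold higher or lower in knockdown cells. Over all 425 miRNAs, 17.9% passed 2-fold upwards and 27.3% downwards. Among the 124 with a mean of at least 100 RPM, which include the 3 members, the shares were 2.42% and 5.65%. An interval without 0, as for miR-182-5p, was common among abundant miRNAs: of the 51 whose mean reached 1000 RPM, 23.5% had an interval above 0 and 39.2% one below it. The median log2 fold change was -0.0013 over the 3 members, -0.20 over all 425 miRNAs, those with very few reads included, and -0.09 over those 51. Scaling by the median of ratios, over the 326 miRNAs listed in both libraries at any level, raises every log2 fold change by 0.20 before the pseudocount. The values then were 0.37 for miR-182-5p, 0.20 for miR-183-5p and -0.25 for miR-96-5p. The sign of miR-183-5p thus turned while the other signs did not. Which intervals left out 0 changed as well: with this scaling they were 0.23 to 0.51 for miR-182-5p, 0.0042 to 0.39 for miR-183-5p and 0.18 to 0.41 for the summed cluster, all above 0, and -0.88 to 0.41 for miR-96-5p. The shares of the 51 abundant miRNAs above were computed with the same total in both libraries only.

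**Figure D3:**
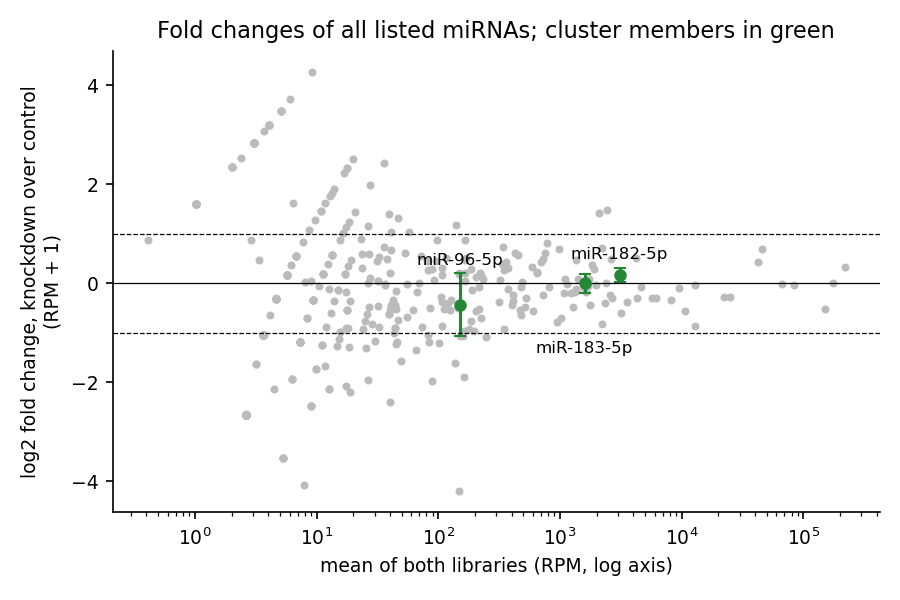
Log2 fold change of knockdown over control (RPM + 1) against the mean RPM of both libraries (log axis) for all 425 miRNAs; grey points are other miRNAs, green points the 3 members with their 95% counting intervals, and dashed lines mark 2-fold. All 3 members lie between the dashed lines, at 0.17, -0.0013 and -0.44.

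Ratios between members do not depend on the scaling between libraries. The ratio of miR-182-5p to miR-96-5p was 1.53 times as high in knockdown cells as in control cells (95% conditional interval of the odds ratio 0.96 to 2.40). For miR-183-5p to miR-96-5p the factor was 1.36 (0.85 to 2.15), and for miR-182-5p to miR-183-5p it was 1.13 (0.95 to 1.33). All 3 intervals hold 1, so a change in the division of the reads among the products was not detectable at this depth. A shift of miR-96-5p against miR-182-5p of up to 2.40 times is within the counting error.

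Other clusters with at least 3 hairpins give a scale for this unequal output, with both arms of a hairpin summed. In the miR-99b/let-7e/miR-125a cluster the highest hairpin, miR-99b, had 22.5 times the reads of the lowest, miR-125a, in control cells (18.2 to 28.0) and 20.4 times in knockdown cells (18.03 to 23.2). These intervals overlap those of the miR-183 cluster in both libraries. In the miR-106b/miR-93/miR-25 cluster, in an intron of MCM7, the ratio of miR-106b to miR-93 was 6.08 (4.66 to 8.05) in control cells and 12.8 (10.1 to 16.4) in knockdown cells. Both intervals lie below those of miR-182-5p to miR-96-5p in the same library, 11.7 to 24.4 and 19.8 to 33.3. For the single-locus members of the miR-17/miR-18a/miR-19a/miR-20a cluster the lowest hairpin, miR-18a, had 3 reads in control cells, and the knockdown ratio of miR-17 to miR-18a, 8.0 (3.42 to 22.9), rested on 6 reads of miR-18a. The miR-200b/miR-200a/miR-429 cluster reached at most 7.12 RPM in any hairpin, too few reads for a ratio.

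**Figure D4:**
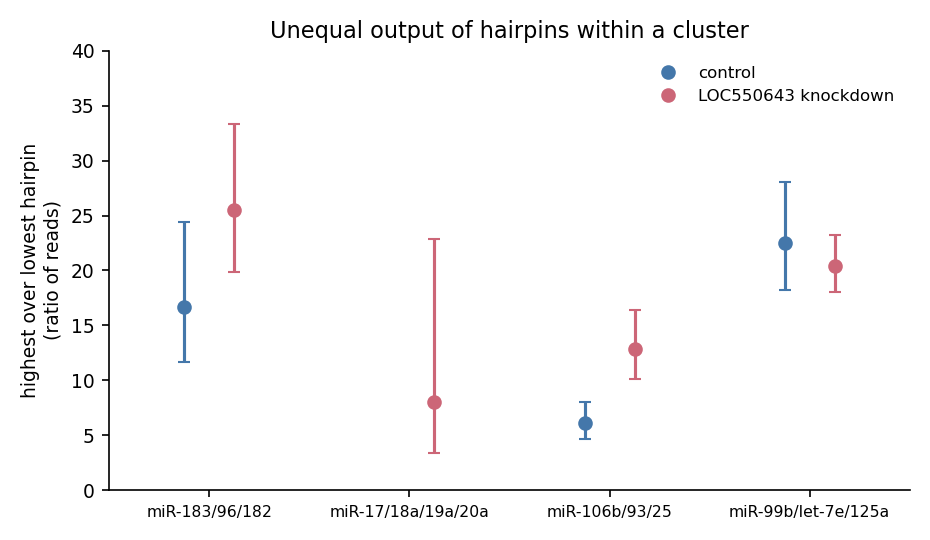
Reads of the highest hairpin over those of the lowest within each cluster, control library in blue and knockdown library in red, with 95% counting intervals; the control value of miR-17/miR-18a/miR-19a/miR-20a is left out because its lowest hairpin had 3 reads. The miR-183 cluster (16.6 and 25.5) lies near miR-99b/let-7e/miR-125a (22.5 and 20.4) and above miR-106b/miR-93/miR-25 (6.08 and 12.8).

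Few other miRNAs carry these seeds. Among the RefSeq mature miRNAs used here, the seed of miR-182-5p (UUGGCAA) and that of miR-183-5p (AUGGCAC) belong to no other product, and the seed of miR-96-5p (UUGGCAC) is shared with miR-1271-5p, from a hairpin on chromosome 5, shown with its seed in capitals.
miR-1271-5p: cUUGGCACcuagcaagcacuca

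In these cells miR-1271-5p was not listed in control cells and had 1 read (2.03 RPM) in knockdown cells, under the limit of 3 reads, so the UUGGCAC seed rested on miR-96-5p: 175 RPM in control cells and 130 RPM in knockdown cells for both miRNAs together. Counted by bases 2 to 7 instead, the UUGGCA group of miR-182-5p, miR-96-5p and miR-1271-5p came to 3079 and 3397 RPM, of which miR-182-5p held 2904 and 3267 RPM. Of the 425 listed names, 350 matched a RefSeq mature miRNA, and the others entered no seed group.

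The study asked which miRNAs LOC550643 might bind. Matches to the seeds were therefore sought, on the strand of the transcript, in the LOC550643 isoforms V1 (718 nt), V2 (581 nt) and V3 (476 nt) as the study sequenced them. The letters complementary to bases 2 to 8 are TTGCCAA for miR-182-5p, GTGCCAT for miR-183-5p and GTGCCAA for miR-96-5p, and those for bases 2 to 7 are TGCCAA (miR-182-5p and miR-96-5p, contained in their longer motifs) and TGCCAT (miR-183-5p). All 5 motifs had 0 matches in each isoform. In the first 718 bases of 116724 GENCODE transcripts of at least that length, TTGCCAA occurred in 6.14%, GTGCCAT in 4.33%, GTGCCAA in 4.78%, TGCCAA in 22.2% and TGCCAT in 20.7%. The absence says only that these letters are not in the isoforms.

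The miRNAs nearest in level were found by the distance of log2(RPM + 1) over the 2 libraries, which makes them neighbours in abundance only. The nearest to miR-182-5p were let-7c (2179 and 3054 RPM, control first), miR-532-5p (2947 and 2380 RPM) and miR-26a-5p (2818 and 2377 RPM). Those nearest to miR-183-5p were miR-423-3p (1640 and 1536 RPM), let-7e-5p (1715 and 1658 RPM) and miR-125b-5p (1740 and 1528 RPM). For miR-96-5p they were miR-9-5p (169 and 120.0 RPM), miR-501-3p (143 and 112 RPM) and miR-450b-5p (217 and 110 RPM).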

How the data were processed

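The authors prepared small RNA libraries with a NEBNext kit, sequenced them on a MiSeq, used a tool of their own to assign reads to miRNAs, and deposited RPM values, a table per library. The submitters' processing notes name FastQC, cutadapt and hg38; the miRNA release, permitted mismatches and filters are not given in the sources used here. Reads assigned with mismatches could pass between the similar miR-182-5p and miR-183-5p.

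From these tables, values were set to the same total per library and 0 was entered for a miRNA that a table does not list. The RPM of 1 read was fitted by least squares to values of up to 20 reads within 0.1 read of a whole number (92.9% of 253 low values in the control library, 91.5% of 224 in the knockdown library). The remainder were fractions of a read, and for the intervals reads were rounded to whole numbers. No count test was run, because 1 library per group gives no replicate error. Log2 fold changes used a pseudocount of 1 RPM. Intervals of fold changes and ratios came from the exact interval of a share of the reads of both libraries or both miRNAs, and those of odds ratios from the conditional distribution (scipy 1.17.1, Python 3.11.15). The procedure was run on 20 simulated pairs of libraries. Their reads were drawn independently, as the intervals assume, so the simulation does not test PCR duplicates or variation between cultures. The miRNAs named were all products of the cluster, miR-1271-5p, 4 other clusters, miRNAs within 2 Mb, 7 epithelial miRNAs and the 3 nearest in level to each member; members and lists were chosen with earlier results of these data known. Sequences were from RefSeq (GRCh38.p14), gene positions from GENCODE 29, and isoforms from the study's supplement. Alternatives covered the pseudocount, scaling, fold threshold, low-value filters and the arms summed.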

Additional observations from a re-analysis of the deposited data

How the results depend on the processing

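Of 42 alternative values, 35 stayed within the counting interval of the reported value or gave the same count, and 7 moved outside it. Scaling by the median of ratios gave log2 fold changes of 0.29 for the summed cluster, 0.37 for miR-182-5p and 0.20 for miR-183-5p, against 0.09, 0.17 and -0.0013 as reported. Scaling by the 75th percentile gave 0.38, 0.45 and 0.28. With either scaling the counting intervals of all 3 values lie above 0, whereas with the same total per library only that of miR-182-5p does. Both scalings raise all miRNAs together, by 0.20 and 0.28 before the pseudocount. The median of ratios takes in miRNAs with few reads, where the unequal depth enters, and neither scaling was run on abundant miRNAs alone. Without miR-182-5p the cluster sum had a log2 fold change of -0.040 in place of 0.09 (interval of the reported value -0.02 to 0.21). The interval of the sum without miR-182-5p, -0.22 to 0.15, holds both 0 and 0.09. Pseudocounts of 0.1 and 10 RPM and the values as deposited moved no value of the cluster or its members out of its interval. The counts of members more than 2-fold higher and lower stayed at 0 and 0 under each scaling and pseudocount and at a 1.5-fold threshold. Shares over all miRNAs were computed only at 2-fold with the same total per library and a pseudocount of 1 RPM. The counts at the other settings therefore have no share to be read against. The low-value filters remove no member, since the lowest, miR-96-5p, has 33 control and 63 knockdown reads. Their unchanged counts are among the 35 values above and test nothing. Summing the 5p arms alone changed nothing, since no 3p arm is listed. No paired analysis was possible because each group has 1 library. Depth limits miR-96-5p most: its 33 control reads leave a range from 0.47 to 1.16 for its ratio of knockdown over control, and variation between cultures cannot be seen with 1 library per group.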

Other observations

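The miR-183 cluster is often abundant in epithelial cells, whereas other miRNAs that mark epithelial cells were nearly missing here. Of 7 such miRNAs, miR-200a-3p, miR-200b-3p, miR-200c-3p, miR-141-3p, miR-429, miR-203a-3p and miR-205-5p, only miR-200b-3p and miR-200c-3p were listed in either library. The value of miR-200b-3p was 5.29 RPM in control cells (1 read) and 7.12 RPM in knockdown cells, and that of miR-200c-3p was 5.29 and 1.02 RPM. In the same libraries the cluster summed to 4671 and 4986 RPM.

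On chromosome 7, the RefSeq tables used here hold 10 mature miRNAs from other hairpins within 2 Mb of the cluster, and 4 of the 10 exceeded 3 reads in a library. The closest of these hairpins, MIR335, lies about 721 kb away; miR-335-5p was not listed and miR-335-3p had 1 read in control cells. The abundant neighbour was miR-29a-3p, whose hairpin is 1102 kb away on the same strand, with 1410 RPM in control cells and 1239 RPM in knockdown cells (log2 fold change -0.19, interval -0.40 to 0.02). For miR-29b-3p, which has a second hairpin elsewhere and cannot be assigned to this one, the values were 354 and 273 RPM (-0.38, -0.81 to 0.07). The sequence of miR-129-5p is held by the MIR129-1 hairpin, 1562 kb away, and by a second hairpin elsewhere, and its values were 169.29 and 205.45 RPM (0.28, -0.31 to 0.90). The remaining one, miR-29b-1-5p, had 1 read in control cells and 4 in knockdown cells. Of the neighbours with over 3 reads in both libraries, miR-29a-3p, miR-29b-3p and miR-129-5p, none was more than 2-fold higher or lower. Each of these neighbours averaged over 100 RPM. Of the 124 miRNAs that reached this level, 2.42% passed 2-fold upwards and 5.65% downwards. A count of 0 therefore does not set these neighbours apart.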
